A study of Mus musculus with 35 samples.

Results

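Podocytes of mice carrying the C118F exchange in the transcription factor LMX1B were compared with podocytes of control mice, both after treatment with the solvent DMSO. The mice were assigned by their labels: 6 mice labelled C118F and DMSO and 6 mice labelled WT and DMSO, 12 of the 35 mice in the series. C118F mice were Lmx1b C118F/lox, and the control mice, labelled WT, were Lmx1b +/lox, so the controls also kept only 1 intact allele once the floxed allele had been deleted. Mice of both groups carried rtTA under a podocyte promoter, tetO::Cre and the mT/mG reporter on a C57BL/6 background and were adults of 7 to 10 weeks. All 12 received doxycycline at 2 mg/ml in the drinking water for 7 days to switch on Cre in podocytes, and DMSO, the solvent of the proteasome inhibitor bortezomib, by intraperitoneal injection every other day. Cells that had turned green through Cre were sorted from digested glomeruli and sequenced in bulk, 1 library per mouse. Cre thus depended on that promoter, so by design a cell turns green only if the promoter was active in it during doxycycline. The libraries nevertheless held transcripts of other cells, which are given below. Both Cre and doxycycline were present in the controls too. Expression was given as TPM, transcript abundance normalised to gene length and library size. A gene was tested if all 6 mice of either group exceeded 1 TPM, which held for 10899 of 33292 genes, 9872 of them through both groups, 542 through the C118F mice alone and 485 through the control mice alone.

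LMX1B is a LIM-homeodomain transcription factor: a pair of LIM domains, each folded around zinc ions, sits in front of the homeodomain that binds DNA. Podocytes wrap the glomerular capillaries with interdigitating foot processes that are bridged by the slit diaphragm, and mutations in human LMX1B cause nail-patella syndrome and glomerular disease. The exchanged cysteine is one of the residues that hold zinc in the second LIM domain. The codon is shown because it is the base pair triplet that the knock-in changes. It lies in exon 3 of Lmx1b at chromosome 2, 33459267 to 33459269 (GRCm39, minus strand). It encodes residue 95 of the reference protein (transcript ENSMUST00000239476), which is numbered from a later start than the name C118F. The reference sequence at chr2:33459237-33459294 reads 5′ to 3′ as follows, with the cysteine codon in capitals.
Lmx1b: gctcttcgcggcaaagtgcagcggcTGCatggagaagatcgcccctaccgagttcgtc

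The Lmx1b transcript itself was found in every mouse. C118F replicates 1 to 6 held 37.4, 108, 109, 67.7, 100.3 and 185 TPM, and control replicates 1 to 6 held 44.8, 70.7, 72.2, 89.7, 75.02 and 64.9 TPM. The lowest of all 12 values and the 4 highest belonged to C118F mice, so the groups overlapped at the low end and the C118F group was the more spread out. The log2 fold change of C118F over control was 0.41 (standard error 0.29, adjusted p = 0.311, limma on log2(TPM + 1) with Benjamini-Hochberg adjustment over all genes tested), and a two-sided exact permutation test over the mice gave p = 0.271. Without C118F replicate 1 the difference was 0.66 (adjusted p = 0.0328), so 1 library decides on which side of the threshold Lmx1b falls. TPM per gene does not separate the mutant allele, the wild-type allele and any transcript left of the recombined floxed allele, so it does not check the genotype.

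The reads behind the values were recovered from the TPM steps at 14033262 to 23219618 per library, with medians of 18835529 in C118F and 19917672 in control mice. The sorted cells carried the podocyte markers: the summed TPM of 12 podocyte markers was 30676 to 48338 TPM in control mice and 7129 to 15656 TPM in C118F mice. Of 15 endothelial markers 3 passed the filter, and without Cldn5 the other 14 summed to 17.6 to 91.7 TPM in control and 18.8 to 233 TPM in C118F mice, the highest in replicate 1 of each group. Pecam1 was 0 to 3.52 TPM in control and 0.199 to 25.3 TPM in C118F mice. Of 15 mesangial and smooth muscle markers 3 passed, with sums of 18.02 to 78.1 TPM in control and 77.6 to 2431 TPM in C118F mice. The top value came from C118F replicate 1, of which Ren1 (renin) gave 2166 TPM, and Pdgfra was at 0 in all 6 C118F and in 3 of 6 control mice. In C118F replicates 2 to 6 Pdgfrb alone, at 64.1 to 277 TPM, made up most of the mesangial and smooth muscle sum. Tubule marker sums were 131 to 2696 TPM in control and 39.2 to 377 TPM in C118F mice, the highest in control replicate 2 and, among the C118F mice, in replicate 4. Leukocyte marker sums were 8.59 to 591 TPM and 12.95 to 167 TPM, the highest in replicate 1 of each group, with Ptprc (CD45) at most 0.241 TPM in any mouse. None of 7 erythroid markers passed, and their sums were highest in control replicate 1 (93.5 TPM) and C118F replicate 4 (33.7 TPM). Xist lay between 12.8 and 38.1 TPM in all 12 mice, while the Y-linked genes Ddx3y, Uty, Kdm5d and Eif2s3y were at most 0.0336 TPM in any of them, the pattern of female mice. C118F replicates 1 and 4 and control replicates 1 and 2 therefore held the highest sums of other cells' markers in their groups. Other libraries were not free of them: control replicate 5 had a tubule sum of 605 TPM and control replicate 6 a leukocyte sum of 127 TPM. The part these transcripts had in the results below was not tested beyond leaving each library out.

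Many genes differed, and the largest differences were mostly rises from a low level. At an adjusted p below 0.001 and an absolute log2 fold change above 2, named the stricter call, 178 genes (1.63% of those tested) were higher and 69 (0.633%) were lower in C118F than in control podocytes. At an adjusted p below 0.05 with no limit on size, named the looser call, 1498 (13.7%) were higher and 1810 (16.6%) lower, and below, rose and fell refer to this looser call. Values of the mice did not overlap at all for 706 genes above (6.48%) and 783 below (7.18%) the controls. The median log2 fold change over all genes tested was -0.06, and it was -0.02 when samples were scaled by the median of ratios. For each gene list below, rises and falls are counted among the members that passed the filter, the median is that of their log2 fold changes, and the number of genes listed is given as well. Background is the share over all genes tested. The filter keeps members that are high in 1 group alone, so these counts describe the lists and do not test them.

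The genes up by the stricter call had a median of 3.81 TPM in control and 43.4 TPM in C118F mice, against a median of 23.1 TPM over all genes tested in control mice. Of the 178, 47 were below 1 TPM in the control mean. The 69 genes down went the other way on the level scale, from a median of 53.8 to 9.17 TPM, and 26 of them exceeded 100 TPM in the control mean. Of the down genes, 10 were long noncoding RNAs (14.5%), against 4.93% of all genes tested and 7 of the 178 up genes. All mice of the groups were separated for 161 of the up and 68 of the down genes.

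**Figure D1:**
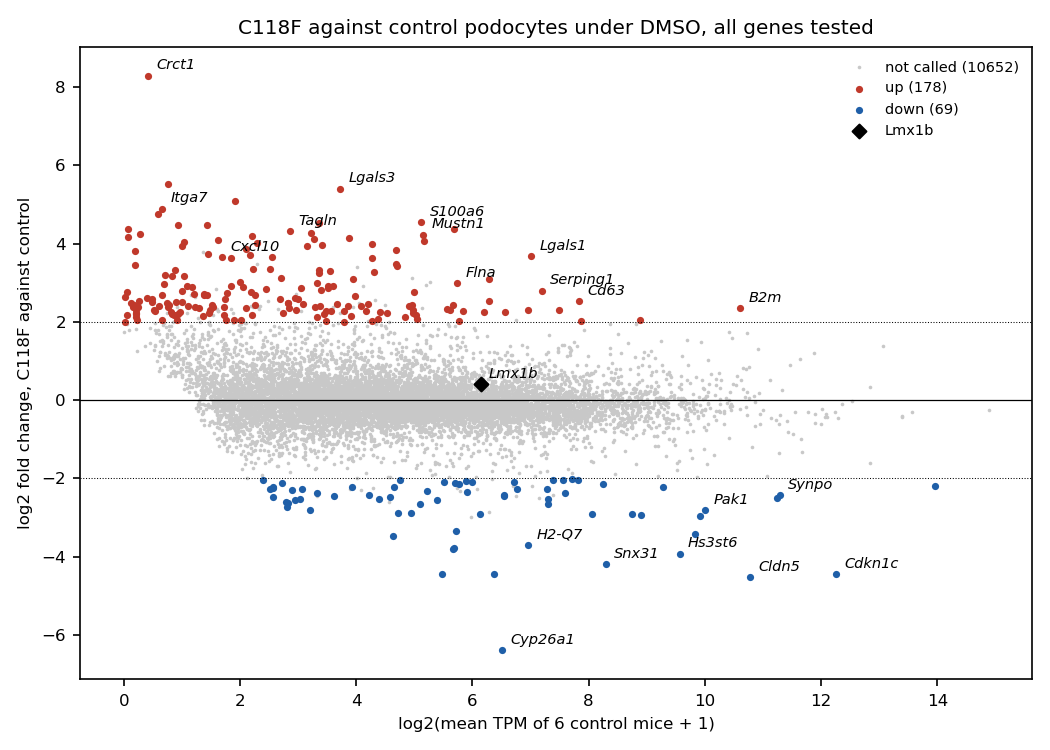
Log2 fold change of C118F over control (vertical axis) against the log2 of the mean control TPM plus 1 (horizontal axis), 1 point per tested gene (10899). Red points are the 178 genes up and blue points the 69 genes down by the stricter call, dotted lines mark log2 fold changes of 2 and -2, the diamond is Lmx1b, and named genes reach from Crct1 at 8.29 to Cyp26a1 at -6.40.

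The 10 largest separated rises included Crct1, Lgals3, Rnd1, Itga7, Itga11, S100a6, Plk2, P2rx5 and Scara3, with log2 fold changes from 8.29 down to 4.48. Crct1, a gene of the epidermal differentiation complex on chromosome 3 from 92921508 to 92923001 (GRCm39), stood at 0 to 1.24 TPM (median 0) in control mice and 48.1 to 1092 TPM (median 697) in C118F mice. It was listed at 0 in 4 of 6 control mice and was detected in every C118F mouse (log2 fold change 8.29, standard error 0.63, adjusted p = 2.8e-07). Lgals3, which encodes galectin-3, stood at 0 to 36.9 TPM (median 5.38) in control mice and 56.6 to 580.1 TPM (median 372.0) in C118F mice, without overlap (log2 fold change 5.40, standard error 0.80, adjusted p = 1.6e-04).

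Cell surface and adhesion genes made up part of that group. Itga7 and Itga11, integrin chains that pair with the β1 chain for laminin and collagen, were both among them. Itga7 rose from 0.588 ± 0.745 to 44.6 ± 14.6 TPM (mean ± SD, n = 6 mice per group, as for all values written with ±, log2 fold change 4.89, adjusted p = 2.6e-08). Itga11 rose from 0.505 ± 0.149 to 42.5 ± 18.9 TPM (log2 fold change 4.76, adjusted p = 8.0e-09). P2rx5, an ATP-gated ion channel, rose from 0.902 ± 0.553 to 42.3 ± 15.9 TPM (log2 fold change 4.48, adjusted p = 2.3e-08). Scara3, a scavenger receptor family member, rose from 1.71 ± 3.53 to 42.5 ± 19.3 TPM (log2 fold change 4.48, adjusted p = 2.0e-05). For Scara3, control replicate 1 held 8.87 TPM while the other 5 control mice were at most 1.09 TPM. Rnd1, an atypical small GTPase, rose from 2.79 ± 1.88 to 132 ± 72.9 TPM (log2 fold change 5.09, adjusted p = 2.6e-06). Plk2, a polo-like kinase, rose from 9.29 ± 5.27 to 215 ± 86.002 TPM (log2 fold change 4.52, adjusted p = 5.6e-07). S100a6, a calcium-binding protein, rose from 33.9 ± 25.3 to 801 ± 370.5 TPM (log2 fold change 4.55, adjusted p = 2.5e-06). The genes named here started from control means of at most 33.9 TPM.

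Among the 10 largest separated falls were transcripts that are abundant in control podocytes. Cdkn1c, which encodes the cyclin-dependent kinase inhibitor p57 that marks mature podocytes, stood at 4148 to 5610.1 TPM (median 4969.7) in control mice and 146 to 382 TPM (median 222) in C118F mice. No C118F mouse came near the lowest control mouse (log2 fold change -4.45, standard error 0.23, adjusted p = 1.3e-08). Cldn5, a claudin that podocytes as well as endothelial cells express, stood at 1328 to 1997 TPM (median 1814) in control mice and 49.3 to 152 TPM (median 59.2) in C118F mice (log2 fold change -4.52, standard error 0.25, adjusted p = 2.2e-08). The other 14 endothelial markers summed to 91.7 TPM in control replicate 1 and to 17.6 to 50.5 TPM in the other control mice, and their part in the Cldn5 result was not tested.

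Fgfbp1, a secreted carrier of fibroblast growth factors, fell from 82.1 ± 46.8 to 3.27 ± 3.14 TPM (log2 fold change -4.45, adjusted p = 1.7e-05). Snx31, a sorting nexin, fell from 313 ± 43.2 to 17.9 ± 9.41 TPM (log2 fold change -4.19, adjusted p = 4.3e-08). Hs3st6, a heparan sulfate 3-O-sulfotransferase, fell from 758 ± 110.3 to 52.6 ± 24.7 TPM (log2 fold change -3.92, adjusted p = 2.6e-08). Gm45274 on chromosome 8 from 15096210 to 15107204 fell from 43.6 ± 12.5 to 1.401 ± 1.96 TPM (log2 fold change -4.45, adjusted p = 6.2e-07). BB014433 on chromosome 8 from 15091444 to 15096078 fell from 49.9 ± 9.15 to 2.75 ± 1.45 TPM (log2 fold change -3.82, adjusted p = 2.3e-08). A gene listed only by its Ensembl identifier, ENSMUSG00000113029, fell from 50.7 ± 16.5 to 2.91 ± 1.66 TPM (log2 fold change -3.79, adjusted p = 2.1e-07). Together with Cyp26a1 and H2-Q7, which are taken up with their gene groups below, these 10 genes had log2 fold changes from -6.40 to -3.71.

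**Figure D2:**
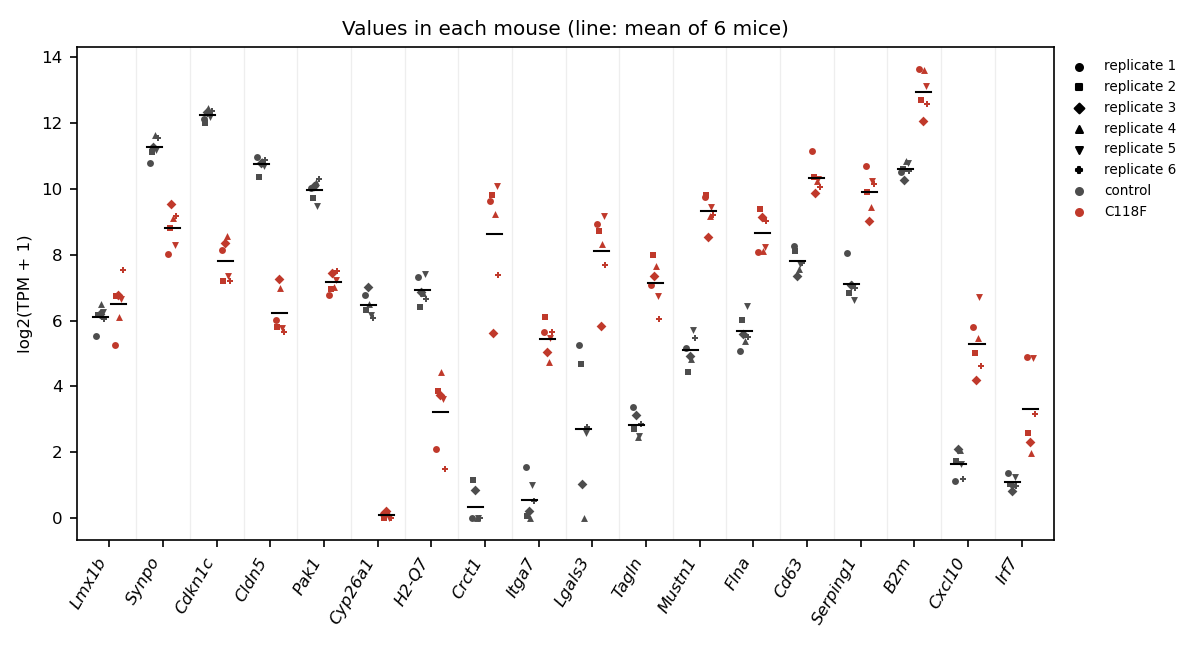
Values of 18 genes on the log2(TPM + 1) scale (vertical axis), 1 symbol per mouse and replicate number, control mice in grey and C118F mice in red, with the mean of 6 mice as a line. The groups overlap in Lmx1b and are apart in all other genes plotted.

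The podocyte's own program was lower on balance. Of the 12 podocyte markers 10 fell (background 16.6%) and none rose, 5 of them by the stricter call (background 0.633%), with a median log2 fold change of -1.92. Leaving out 1 mouse at a time left 9 to 11 of them lower. In bulk RNA, fewer cells of a type and less RNA per cell cannot be told apart. Rhpn1, which encodes rhophilin-1, stood at 788 to 1149 TPM (median 894) in control mice and 52.2 to 244 TPM (median 59.9) in C118F mice, with no overlap (log2 fold change -3.42, standard error 0.32, adjusted p = 1.9e-06). Synpo, which encodes the actin-associated protein synaptopodin, stood at 1784 to 3199 TPM (median 2409) in control mice and 257 to 745 TPM (median 501) in C118F mice, again with no overlap (log2 fold change -2.44, standard error 0.23, adjusted p = 2.7e-06). Dpp4, a membrane peptidase, did not pass (1609 ± 195 TPM in control and 1997 ± 426 TPM in C118F mice, log2 fold change 0.29, adjusted p = 0.152). Nphs1 (nephrin), chosen after its values were seen, was the other marker that did not pass, with 131 to 246 TPM (median 210.3) in control mice and 113 to 169 TPM (median 157) in C118F mice (log2 fold change -0.38, adjusted p = 0.0622). Without control replicate 6 the Nphs1 log2 fold change was -0.50 (adjusted p = 0.00847), past the threshold. The markers hence did not move as 1 block: falls of more than 2 log2 units stood beside transcripts near their control level.

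Among 33 tested genes of the slit diaphragm and foot process membrane 13 fell (background 16.6%) and 2 rose (background 13.7%), with a median of -0.35, 37 genes listed. Ddn, which encodes dendrin, a cytoplasmic partner of slit diaphragm proteins, stood at 337 to 575 TPM (median 495) in control mice and 40.6 to 141 TPM (median 48.6) in C118F mice (log2 fold change -2.93, standard error 0.27, adjusted p = 1.6e-06), and the groups did not overlap. Pals1, a polarity scaffold, fell from 263 ± 20.5 to 90.8 ± 24.2 TPM (log2 fold change -1.56, adjusted p = 2.3e-06). Fyn, the kinase that phosphorylates nephrin, fell from 212 ± 14.5 to 108 ± 12.9 TPM (log2 fold change -0.98, adjusted p = 3.4e-06). The 2 members that rose were Dag1, which encodes dystroglycan (1733 ± 486 to 3129 ± 788 TPM, log2 fold change 0.85, adjusted p = 0.00905), and Pla2r1, the phospholipase A2 receptor, at 0 to 0.407 TPM (median 0.0555) in control mice and 2.86 to 6.896 TPM (median 5.54) in C118F mice (log2 fold change 2.38, adjusted p = 2.5e-06). Clic5, a chloride intracellular channel family protein of the foot process, was the most abundant member that did not pass (1954 ± 239.8 TPM in control and 2235 ± 482 TPM in C118F mice, log2 fold change 0.17, adjusted p = 0.427).

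Podocyte transcription factors gave falls of smaller size. Of 23 tested, 7 fell (background 16.6%), none rose and none passed the stricter call (median -0.33, 28 genes listed). Hoxc8, a homeobox gene, fell from 261 ± 29.9 to 113 ± 14.1 TPM (log2 fold change -1.20, adjusted p = 1.6e-06). Zhx1, a zinc finger and homeobox repressor, fell from 145 ± 17.1 to 79.8 ± 5.71 TPM (log2 fold change -0.85, adjusted p = 1.5e-05). Wt1 and Foxc2, both chosen after their values were seen, fell from 209 ± 46.1 to 133 ± 47.4 TPM (log2 fold change -0.70, adjusted p = 0.0299) and from 563 ± 70.8 to 268 ± 109 TPM (log2 fold change -1.17, adjusted p = 0.00179). The Wt1 log2 fold change no longer passed without C118F replicate 2, 3 or 4 or without control replicate 2, 3, 4 or 5, with adjusted p values of up to 0.064. Klf6 was the most abundant that did not pass (826 ± 367 TPM in control and 752 ± 256 TPM in C118F mice, log2 fold change -0.08, adjusted p = 0.87). C118F replicate 1 had the lowest mean level of the list on the log2(TPM + 1) scale, 5.34, against 5.93 to 6.16 in the other 5 C118F mice. This is also the mouse with the lowest Lmx1b and the high renin transcript.

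The cytoskeletal genes parted by type. Of 37 actin regulators of the foot process 8 rose and 5 fell (median 0.05, 41 genes listed), shares of the same order as in all genes. Pak1, a kinase downstream of Rac and Cdc42, stood at 719 to 1256 TPM (median 1070.1) in control mice and 109 to 182 TPM (median 138) in C118F mice, without overlap (log2 fold change -2.82, standard error 0.16, adjusted p = 2.2e-08). Coro2b (coronin) fell from 132 ± 8.03 to 65.2 ± 15.9 TPM (log2 fold change -1.04, adjusted p = 1.7e-04). Cap2, a cyclase-associated actin protein, rose from 7.003 ± 3.89 to 42.1 ± 7.73 TPM (log2 fold change 2.57, adjusted p = 1.7e-05). Wasl, which encodes N-WASP, rose from 117.6 ± 9.64 to 210.3 ± 58.04 TPM (log2 fold change 0.79, adjusted p = 0.00159). Cfl1, which encodes cofilin-1, rose from 769.8 ± 59.1 to 1015 ± 69.4 TPM (log2 fold change 0.40, adjusted p = 0.0054). Cdc42 did not pass (1419 ± 154 TPM in control and 1272 ± 147 TPM in C118F mice, log2 fold change -0.16, adjusted p = 0.317).

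Genes of a contractile, smooth muscle type mostly rose: 21 of 28 tested rose, against 13.7% of all genes, and 2 fell, with a median of 1.39, 37 genes listed. With single mice left out 18 to 23 were still higher, and in 17 members every C118F mouse lay above every control mouse (background 6.48%). Tagln, which encodes the actin-binding protein transgelin, stood at 4.499 to 9.28 TPM (median 5.86) in control mice and 65.7 to 254 TPM (median 149.8) in C118F mice, with no overlap (log2 fold change 4.32, standard error 0.27, adjusted p = 5.3e-08). Mustn1, a small gene of the musculoskeletal lineage, stood at 20.8 to 51.3 TPM (median 32.1) in control mice and 371.7 to 896 TPM (median 645) in C118F mice, also with no overlap (log2 fold change 4.23, standard error 0.23, adjusted p = 1.6e-08). Flna, which encodes filamin A, an actin crosslinker, stood at 32.5 to 86.7 TPM (median 45.5) in control mice and 269 to 669 TPM (median 408) in C118F mice, and there too the groups were apart (log2 fold change 2.99, standard error 0.27, adjusted p = 1.4e-06). Acta2, the classical smooth muscle actin, did not pass and varied widely between C118F mice: it stood at 0 to 80.1 TPM (median 3.79) in control mice and 5.22 to 422 TPM (median 41.6) in C118F mice (log2 fold change 2.92, adjusted p = 0.0645). Without control replicate 1 the Acta2 log2 fold change was 3.73 (adjusted p = 0.0133), past the threshold. Csrp2, a LIM-only protein, and Cnn3, calponin-3, fell from 89.1 ± 14.95 to 39.9 ± 8.27 TPM (log2 fold change -1.15, adjusted p = 4.3e-05) and from 216 ± 28.5 to 161 ± 30.7 TPM (log2 fold change -0.44, adjusted p = 0.0222). Tagln2 rose from 449.9 ± 67.8 to 1737 ± 245 TPM (log2 fold change 1.95, adjusted p = 5.3e-08), and Myl6, the most abundant member that did not pass, was 1293 ± 241 TPM in control and 1042 ± 235 TPM in C118F mice (log2 fold change -0.32, adjusted p = 0.15). Pdgfrb, the platelet-derived growth factor receptor that also marks mesangial cells, moved with this list, from 9.28 to 22.1 TPM (median 13.3) in control mice and 64.1 to 277 TPM (median 125) in C118F mice (log2 fold change 3.10, standard error 0.37, adjusted p = 2.2e-05). Cspg4, a pericyte proteoglycan, rose from 1.57 ± 0.418 to 4.92 ± 1.23 TPM (log2 fold change 1.19, adjusted p = 3.0e-04). The 15 mesangial and smooth muscle markers, Pdgfrb and Cspg4 included, summed to 18.02 to 78.1 TPM in control mice, to 77.6 to 316 TPM in C118F replicates 2 to 6 and to 2431 TPM in C118F replicate 1. In C118F replicates 2 to 6 Pdgfrb alone gave 172, 277, 266, 76.6 and 64.1 TPM of sums of 189, 289, 316, 86.3 and 77.6 TPM. C118F replicate 1 had the highest Acta2 and held 2166 TPM of Ren1, 39.1 TPM of Rgs5, 20.03 TPM of Rergl and 11.9 TPM of Myh11, while Pdgfra was at 0 in it. Without it 22 contractile genes rose. Whether other cells in the sort had a part in the rises of the contractile list was not tested.

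Many contractile genes carry CArG boxes, the binding element of serum response factor, and this element was looked for on both strands in the 250 bases before the RefSeq start sites (GRCm38.p6), which were at hand for 8438 of the 10899 genes tested. Each element was counted on its own, so that a window may hold several. The CArG box was present in 5 of 25 contractile promoters (20%), in 1.35% of the tested genes with a promoter and in 1.62% of all 27025 promoters. It was not the most frequent element there. The κB element, taken up with the NF-κB genes below, was in 8 of the same 25 promoters (32%) and in 10.3% of the tested ones. A match is a description of the letters and not a measured site. A pair of rising members is shown for the CArG box, in capitals, within its surroundings: Myl9 at chr2:156775283-156775332 (plus strand) and Vcl at chr14:20929151-20929200 (plus strand).
Myl9: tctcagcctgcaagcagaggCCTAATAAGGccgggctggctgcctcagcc
Vcl: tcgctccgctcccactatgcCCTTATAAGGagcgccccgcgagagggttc
Myl9, a regulatory myosin light chain, and Vcl (vinculin), both chosen after their values were seen, rose from 30.8 ± 24.2 to 198 ± 91.2 TPM (log2 fold change 2.76, adjusted p = 2.3e-04) and from 33.7 ± 7.83 to 82.2 ± 29.1 TPM (log2 fold change 1.21, adjusted p = 0.0011).

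The glomerular basement membrane is made by podocytes and endothelium, with the collagen IV chains α3, α4 and α5 in its mature form and α1 and α2 in the immature form. Of 19 tested basement membrane genes 8 rose (background 13.7%) and none fell (median 0.78, 32 genes listed). Col4a1 stood at 0.451 to 12.2 TPM (median 2.45) in control mice and 9.77 to 64.8 TPM (median 23.1) in C118F mice, where the lowest C118F mouse overlapped with the highest control mouse (log2 fold change 2.68, standard error 0.50, adjusted p = 9.9e-04). Col4a2 stood at 0.581 to 5.99 TPM (median 3.81) in control mice and 24.1 to 75.6 TPM (median 39.6) in C118F mice, without overlap (log2 fold change 3.35, standard error 0.38, adjusted p = 1.4e-05). Both chains of the immature form therefore rose. Col4a3 and Col4a4, chosen after their values were seen, were 454 ± 119 TPM in control and 487 ± 226 TPM in C118F mice (log2 fold change -0.04, adjusted p = 0.941) and 171 ± 22.6 TPM in control and 144 ± 34.4 TPM in C118F mice (log2 fold change -0.27, adjusted p = 0.198), and neither passed. Npnt (nephronectin) was the most abundant member that did not pass (1696 ± 259 TPM in control and 1381 ± 535 TPM in C118F mice, log2 fold change -0.38, adjusted p = 0.228).

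Interstitial and matricellular genes rose in 10 of 20 cases (background 13.7%) and fell in none (median 0.86, 47 genes listed). The mean level of the tested members on the log2(TPM + 1) scale was 5.77 to 6.53 in C118F mice. Control replicate 1, at 6.30, lay within that range, and the other control mice were at 4.56 to 5.26. Over all 47 genes listed, control replicate 1 stood at 4.62 and the C118F mice at 2.54 to 3.36. Ccn2, a connective tissue growth factor, is abundant in control podocytes already and rose from 1362 ± 393 to 4525 ± 1346 TPM (log2 fold change 1.73, adjusted p = 7.3e-05). Tnc (tenascin-C) was mostly a gain from near 0, with 0.02397 to 4.77 TPM (median 0.4999) in control mice and 4.54 to 27.2 TPM (median 15.2) in C118F mice (log2 fold change 2.91, adjusted p = 2.8e-04), and control replicate 1, at 4.77 TPM, was the one control mouse above 0.584 TPM. Lox, the lysyl oxidase that crosslinks collagen, rose from 15.2 ± 5.57 to 46.3 ± 14.5 TPM (log2 fold change 1.55, adjusted p = 1.6e-04). Ccn1 and Spp1 (osteopontin) did not pass (log2 fold change -0.45, adjusted p = 0.328 and log2 fold change -1.03, adjusted p = 0.428).

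Matrix proteases and plasminogen activation gave 8 rises (background 13.7%) and 2 falls (background 16.6%) among 19 tested genes (median 0.55, 34 genes listed). Plat, the tissue plasminogen activator, fell from 2494 ± 317 to 1636 ± 200.88 TPM (log2 fold change -0.61, adjusted p = 0.00212). Adamts4, an aggrecan-cleaving protease, stood at 1.53 to 2.76 TPM (median 1.93) in control mice and 6.699 to 267 TPM (median 58.3) in C118F mice, without overlap (log2 fold change 4.09, standard error 0.65, adjusted p = 2.8e-04). Timp2 rose from 977 ± 90.2 to 2783 ± 598 TPM (log2 fold change 1.48, adjusted p = 3.2e-06). Timp3 fell from 645 ± 80.1 to 461 ± 114 TPM (log2 fold change -0.51, adjusted p = 0.0176), so tissue inhibitors of metalloproteases went both ways. Ctsl (cathepsin L) did not pass (768 ± 171 TPM in control and 966 ± 337 TPM in C118F mice, log2 fold change 0.29, adjusted p = 0.328).

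Integrins and focal adhesion genes gave 9 rises (background 13.7%) and 1 fall (background 16.6%) among 25 tested (median 0.48, 35 genes listed). Itga5, the fibronectin receptor chain, stood at 7.92 to 12.4 TPM (median 10.7) in control mice and 34.3 to 158 TPM (median 89.3) in C118F mice, with the groups apart (log2 fold change 2.86, standard error 0.33, adjusted p = 1.4e-05). Itgb1, the β1 chain shared by most of these receptors, rose from 1929.9 ± 205 to 4892 ± 1137 TPM (log2 fold change 1.31, adjusted p = 4.4e-05). Parva (α-parvin) was the member that fell, from 647 ± 58.6 to 476 ± 82.9 TPM (log2 fold change -0.46, adjusted p = 0.0114). Itgb5 did not pass (1382 ± 279 TPM in control and 1626 ± 423 TPM in C118F mice, log2 fold change 0.21, adjusted p = 0.448).

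Podocytes supply the glomerular endothelium with vascular endothelial growth factor. The vascular and guidance signals split, with 7 rises (background 13.7%) and 4 falls (background 16.6%) among 20 tested (median -0.03, 36 genes listed). Vegfa stood at 739.8 to 1447 TPM (median 1218) in control mice and 158 to 803 TPM (median 468) in C118F mice, with overlap between the highest C118F and the lowest control mouse (log2 fold change -1.41, standard error 0.31, adjusted p = 0.00382). Sema3g, a class 3 semaphorin, stood at 458 to 1287 TPM (median 1030.5) in control mice and 67.1 to 181 TPM (median 123) in C118F mice, and no C118F mouse reached the controls (log2 fold change -2.95, standard error 0.27, adjusted p = 1.5e-06). Sema5a fell from 97.6 ± 15.7 to 58.7 ± 19.8 TPM (log2 fold change -0.78, adjusted p = 0.0108). In the other direction, Ntn4 (netrin-4) rose from 30.7 ± 8.27 to 167 ± 82.9 TPM (log2 fold change 2.29, adjusted p = 3.4e-05). Vegfb rose from 33.1 ± 7.46 to 78.9 ± 15.8 TPM (log2 fold change 1.24, adjusted p = 7.4e-05). Nrp2, a semaphorin and VEGF co-receptor, rose from 0.711 ± 0.591 to 5.42 ± 2.17 TPM (log2 fold change 1.90, adjusted p = 7.7e-05). Angptl2 did not pass (1005 ± 161 TPM in control and 1094 ± 382 TPM in C118F mice, log2 fold change 0.03, adjusted p = 0.936).

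Genes of the TGF-β, BMP and YAP responses gave 8 rises (background 13.7%) and 2 falls (background 16.6%) among 31 (median 0.01, 37 genes listed). The TGF-β ligands themselves were among the rises: Tgfb1 went from 3.05 ± 0.597 to 15.5 ± 6.63 TPM (log2 fold change 1.96, adjusted p = 1.1e-05), and Tgfb2 and Tgfb3, chosen after their values were seen, from 2.09 ± 2.45 to 14.8 ± 9.65 TPM (log2 fold change 2.27, adjusted p = 0.00335) and from 11.1 ± 11.8 to 57.8 ± 45.6 TPM (log2 fold change 2.38, adjusted p = 0.00172). Control replicate 1 held 7.07 TPM of Tgfb2 and 34.9 TPM of Tgfb3, against at most 1.29 and 9.73 TPM in the other controls. Axl, a receptor tyrosine kinase, and Crim1, a BMP regulator, rose from 493 ± 49.5 to 1157 ± 140.3 TPM (log2 fold change 1.23, adjusted p = 1.4e-06) and from 329 ± 98.6 to 746 ± 220.0 TPM (log2 fold change 1.17, adjusted p = 8.1e-04). Ajuba and Tead4, both of the Hippo pathway, fell from 113 ± 32.7 to 64.05 ± 16.4 TPM (log2 fold change -0.79, adjusted p = 0.00946) and from 6.61 ± 1.85 to 2.93 ± 1.85 TPM (log2 fold change -1.03, adjusted p = 0.0103). Bmpr1a did not pass (431 ± 48.5 TPM in control and 493 ± 109 TPM in C118F mice, log2 fold change 0.17, adjusted p = 0.384).

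Cyp26a1, the cytochrome P450 that breaks down retinoic acid, showed the lowest log2 fold change of all separated genes. It lies on chromosome 19 from 37686241 to 37689984 (GRCm39) and stood at 66.2 to 129 TPM (median 83.9) in control mice and 0 to 0.156 TPM (median 0.04398) in C118F mice. The transcript was all but missing from every C118F library (log2 fold change -6.40, standard error 0.17, adjusted p = 7.3e-12). Its promoter is shown because Cyp26a1 is a textbook target of the retinoic acid receptors, which bind direct repeats spaced by 5 bases, the DR5 element. The element occurs at chr19:37697756-37697807 (plus strand) (GRCm38.p6), 32 to 16 bases before the start, here in capitals on the strand of the gene, and in 0.303% of all promoters in the table.
Cyp26a1: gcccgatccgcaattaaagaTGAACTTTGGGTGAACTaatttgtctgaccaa
Of 16 tested retinoic acid genes 5 rose (background 13.7%) and 2 fell (background 16.6%, median 0.12, 26 genes listed), so the list as a whole did not go with Cyp26a1. Rarres1 was the other fall, from 643 ± 94.6 to 237 ± 29.3 TPM (log2 fold change -1.43, adjusted p = 6.2e-07). Tgm2 (transglutaminase 2) stood at 12.7 to 25.6 TPM (median 18.1) in control mice and 145 to 229 TPM (median 189) in C118F mice (log2 fold change 3.27, standard error 0.15, adjusted p = 8.0e-09). Rxra, a retinoid X receptor, rose from 8.76 ± 1.29 to 25.7 ± 6.94 TPM (log2 fold change 1.42, adjusted p = 6.5e-05). Rdh10, which makes retinal, rose from 17.1 ± 7.02 to 75.8 ± 56.5 TPM (log2 fold change 1.88, adjusted p = 0.00125). Aldh1a2, the enzyme that makes retinoic acid, did not pass (94.01 ± 26.1 TPM in control and 95.4 ± 23.02 TPM in C118F mice, log2 fold change 0.03, adjusted p = 0.919).

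Claudins and tight junction genes gave 6 rises (background 13.7%) and 3 falls (background 16.6%) among 12 (median 0.46, 28 genes listed), and the claudins went in opposite directions. While Cldn5 fell, Cldn1, the claudin of parietal epithelial cells, stood at 18.02 to 32.2 TPM (median 24.02) in control mice and 47.6 to 122 TPM (median 77.3) in C118F mice (log2 fold change 1.70, standard error 0.21, adjusted p = 3.4e-05). Jam2 and Cgn (cingulin) rose from 1.74 ± 0.442 to 8.26 ± 2.31 TPM (log2 fold change 1.73, adjusted p = 2.0e-05) and from 1.13 ± 0.2397 to 5.35 ± 1.02 TPM (log2 fold change 1.56, adjusted p = 9.7e-06). F11r and Cgnl1 fell from 292 ± 32.8 to 208 ± 31.5 TPM (log2 fold change -0.50, adjusted p = 0.00452) and from 203 ± 55.9 to 124 ± 18.8 TPM (log2 fold change -0.68, adjusted p = 0.00579). Cxadr did not pass (57.5 ± 14.1 TPM in control and 60.9 ± 23.7 TPM in C118F mice, log2 fold change 0.03, adjusted p = 0.929).

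Interferon-induced genes were higher in C118F podocytes, and differed between C118F mice. Cells that sense interferon switch on a shared set of antiviral genes through transcription factors that include the IRF family. Of 41 tested members 27 rose, against 13.7% of all genes, none fell, with a median of 1.48, 67 genes listed. In 13 members every C118F mouse lay above every control mouse (background 6.48%), and 2 passed the stricter call upward (background 1.63%). Irf7, a factor that amplifies the response, held 28.4, 5.02, 3.94, 2.92, 28.4 and 7.93 TPM in C118F replicates 1 to 6 and 0.764 to 1.58 TPM in control mice (log2 fold change 2.22, standard error 0.46, adjusted p = 0.00223). C118F replicates 1 and 5 were clearly the highest, and all 6 were above the controls. Cxcl10, a chemokine, stood at 1.19 to 3.27 TPM (median 2.19) in control mice and 17.4 to 104 TPM (median 37.1) in C118F mice (log2 fold change 3.66, standard error 0.35, adjusted p = 2.7e-06). Lgals3bp, a secreted glycoprotein, stood at 9.47 to 18.2 TPM (median 14.3) in control mice and 34.998 to 108 TPM (median 71.7) in C118F mice (log2 fold change 2.14, standard error 0.27, adjusted p = 3.4e-05). Neither of these overlapped between the groups. Rigi, the cytosolic RNA sensor, rose from 14.6 ± 3.303 to 35.7 ± 12.7 TPM (log2 fold change 1.19, adjusted p = 7.4e-04). Ifitm2 did not pass (2042 ± 180.1 TPM in control and 1756 ± 451 TPM in C118F mice, log2 fold change -0.25, adjusted p = 0.253). Leaving out 1 mouse at a time gave 22 to 32 rises. With the 3 C118F mice whose numbers do not exceed the highest control number, 47155, 15 rose, and 14 rose once the mouse number entered the fit.

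The mean level of the list on the log2(TPM + 1) scale was 6.67, 4.93, 4.296, 4.66, 6.52 and 5.42 in C118F replicates 1 to 6, against 3.78 to 4.11 in control mice. All 6 C118F mice lay above the controls, but the distance ranged widely. The median SD of members between C118F mice was 1.04 log2 units, compared with 0.3497 between control mice. The log2(TPM + 1) scale narrows the spread of members that are low in control mice. The 18 leukocyte markers summed to 167, 14.9, 14.4, 48.9, 30.98 and 12.95 TPM in C118F replicates 1 to 6 and to 8.59 to 591 TPM in control mice. Ptprc was at most 0.241 TPM in every mouse, while Csf1r, the macrophage receptor, rose from 4.17 ± 1.56 to 8.21 ± 2.87 TPM (log2 fold change 0.81, adjusted p = 0.0206). Lyz2 fell from 61.9 ± 112 to 1.24 ± 1.701 TPM (log2 fold change -3.00, adjusted p = 0.0361). Cd74 did not pass (log2 fold change 0.00, adjusted p = 0.998). Cd74, which chaperones MHC class II, was 85.4, 1.53, 1.57, 24.1, 15.2 and 4.84 TPM in C118F replicates 1 to 6 and 1.78 to 47.2 TPM in control mice, and H2-Ab1, an MHC class II chain, was 32.9 TPM in C118F replicate 1 and at most 4.76 TPM in the other C118F mice. C118F replicate 1 was thus highest in the leukocyte sum, Cd74 and the interferon list. The sum and Cd74 are not separate observations. Cd74, H2-Ab1 and H2-Aa are all among the 18 leukocyte markers and gave 85.4, 32.9 and 12.4 of the 167 TPM in that mouse. The highest of the other leukocyte markers in it was Csf1r at 10.6 TPM, and Lyz2 was 4.24 TPM. Replicate 5, next in the interferon list, lay below replicate 4 in the leukocyte sum and in Cd74. Without C118F replicate 1 the list gave 24 rises and without replicate 5 it gave 22. The part of other cells in the interferon result was not tested further.

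The interferon-stimulated response element, read here as a pair of GAAA words spaced by 2 bases on either strand, was found in the 250 bases before the start of 17 of 33 interferon list genes with a promoter (51.5%) and of 11 of the 20 that rose (55%). The shares were 2.83% among tested genes and 3.46% among all promoters, and the list was chosen for its known regulation. Windows of rising genes are shown with the element in capitals: B2m at chr2:122147528-122147577 (plus strand), Cxcl10 at chr5:92349073-92349122 (minus strand) and Gbp2 at chr3:142620584-142620633 (plus strand) (GRCm38.p6, each on the strand of its gene).
B2m: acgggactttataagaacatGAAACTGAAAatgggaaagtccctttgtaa
Cxcl10: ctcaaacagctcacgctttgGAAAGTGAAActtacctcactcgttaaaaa
Gbp2: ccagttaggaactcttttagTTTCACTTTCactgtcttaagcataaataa
In Gbp2, a guanylate-binding protein gene chosen after its values were seen, the element lies on the opposite strand and so reads as its reverse complement. Its transcript stood at 32.9 to 41.2 TPM (median 38.9) in control mice and 88.9 to 1663 TPM (median 245) in C118F mice (log2 fold change 3.01, standard error 0.62, adjusted p = 0.00222).

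Genes of antigen presentation on MHC class I gave 13 rises (background 13.7%) and 2 falls (background 16.6%) among 24 tested (median 0.90, 28 genes listed). B2m, the light chain shared by all class I molecules, stood at 1225 to 1857 TPM (median 1533) in control mice and 4339 to 12738 TPM (median 7844) in C118F mice, and the groups did not overlap (log2 fold change 2.36, standard error 0.24, adjusted p = 5.7e-06). H2-K1, a classical heavy chain, stood at 260.1 to 429 TPM (median 314) in control mice and 928 to 1696 TPM (median 1265) in C118F mice (log2 fold change 1.93, standard error 0.16, adjusted p = 7.2e-07). H2-T23, a nonclassical one, rose from 203 ± 25.7 to 524 ± 126 TPM (log2 fold change 1.34, adjusted p = 1.0e-05). The nonclassical heavy chains H2-Q6 and H2-Q7 went the other way. H2-Q6 stood at 116 to 195 TPM (median 159.7) in control mice and 6.57 to 67.7 TPM (median 28.1) in C118F mice (log2 fold change -2.67, adjusted p = 2.0e-04). H2-Q7 stood at 83.3 to 171 TPM (median 114) in control mice and 1.81 to 20.9 TPM (median 11.8) in C118F mice (log2 fold change -3.71, adjusted p = 1.2e-05). They are near-identical copies among which reads may have been split at random, so the values of each are uncertain. Calr (calreticulin) did not pass (1685 ± 172 TPM in control and 1938 ± 199 TPM in C118F mice, log2 fold change 0.20, adjusted p = 0.201). Psmb8, a catalytic subunit of the immunoproteasome chosen after its values were seen, rose from 3.69 ± 1.19 to 43.9 ± 57.8 TPM (log2 fold change 2.39, adjusted p = 0.00977).

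The constitutive 26S proteasome, the target of bortezomib, gave few calls under the solvent: 1 of 33 subunit genes rose (background 13.7%) and 4 fell (background 16.6%, median -0.08, 33 genes listed). Psmb6, a constitutive catalytic subunit, fell from 437 ± 56.5 to 318 ± 64.7 TPM (log2 fold change -0.47, adjusted p = 0.0203), and Psmb3 and Psmc5 from 245 ± 23.1 to 172 ± 43.6 TPM (log2 fold change -0.54, adjusted p = 0.016) and from 518 ± 75.3 to 388 ± 54.9 TPM (log2 fold change -0.42, adjusted p = 0.0195). Psmd12, a regulatory subunit, rose from 139.6 ± 6.52 to 183 ± 21.3 TPM (log2 fold change 0.38, adjusted p = 0.00743). Psma6 did not pass (log2 fold change -0.11, adjusted p = 0.455). All these differences were below 1 log2 unit, and the number of falls varied from 0 to 9 over the alternatives.

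Complement genes gave 5 rises (background 13.7%) and 1 fall (background 16.6%) among 9 (median 1.22, 30 genes listed). Clu (clusterin) stood at 6.78 to 134 TPM (median 28.4) in control mice and 457 to 1207 TPM (median 578) in C118F mice (log2 fold change 4.37, standard error 0.57, adjusted p = 4.7e-05). Serping1, the C1 inhibitor, stood at 97.1 to 267 TPM (median 131) in control mice and 515 to 1669.5 TPM (median 1042) in C118F mice (log2 fold change 2.80, standard error 0.27, adjusted p = 3.2e-06). Both control ranges lay wholly below the C118F mice. C1ra, a protease of the first component, rose from 14.6 ± 3.53 to 54.1 ± 12.2 TPM (log2 fold change 1.82, adjusted p = 2.9e-06). Cd59a, an inhibitor of the membrane attack complex on the cell surface, fell from 1801 ± 277 to 779 ± 116 TPM (log2 fold change -1.21, adjusted p = 1.0e-05). Cd55, another surface inhibitor, did not pass (253 ± 38.1 TPM in control and 197 ± 47.7 TPM in C118F mice, log2 fold change -0.38, adjusted p = 0.0752).

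Of 24 NF-κB and chemokine genes 14 rose (background 13.7%) and 1 fell (background 16.6%, median 1.00, 38 genes listed), and 5 rose by the stricter call (background 1.63%). Tnfrsf12a, the receptor for the cytokine TWEAK, stood at 146 to 211 TPM (median 180.1) in control mice and 604 to 1266 TPM (median 903) in C118F mice, with no overlap (log2 fold change 2.31, standard error 0.16, adjusted p = 1.5e-07). Nfkbie, an inhibitor of NF-κB, rose from 31.7 ± 4.76 to 149 ± 27.6 TPM (log2 fold change 2.19, adjusted p = 6.4e-08). Nfkb2 rose from 21.97 ± 3.79 to 82.4 ± 18.5 TPM (log2 fold change 1.84, adjusted p = 1.1e-06). Csf1 and Bcl3, chosen after their values were seen, rose from 3.301 ± 1.52 to 68.9 ± 38.04 TPM (log2 fold change 3.87, adjusted p = 3.3e-06) and from 1.72 ± 1.22 to 47.4 ± 40.2 TPM (log2 fold change 3.73, adjusted p = 1.4e-04). Il18 fell from 105 ± 14.9 to 62.7 ± 16.6 TPM (log2 fold change -0.77, adjusted p = 0.00441). Nfkbia did not pass (1579 ± 1068 TPM in control and 1772 ± 376 TPM in C118F mice, log2 fold change 0.52, adjusted p = 0.407). A promoter was at hand for 126 of the 178 up and 41 of the 69 down genes. The κB element was found in 28 of these up (22.2%), 5 of these down (12.2%) and 10.3% of the tested promoters. It was not alone in this: the CArG box was in 5 of the up (3.97%), 0 of the down and 1.35% of the tested promoters. The interferon-stimulated response element was in 7 of the up (5.56%), 1 of the down (2.44%) and 2.83% of the tested promoters. TAATTA, the core that homeodomain factors such as LMX1B bind, was in 3 of the up (2.38%), 2 of the down (4.88%) and 2.87% of the tested promoters. Counts this small do not separate the down genes from the rest.

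Immediate early genes, the first to be transcribed after a stimulus, gave 10 rises (background 13.7%) and 1 fall (background 16.6%) among 28 (median 0.70, 30 genes listed). Maff and Fosl1, both transcription factors of the AP-1 group, rose from 6.11 ± 3.02 to 43.4 ± 28.7 TPM (log2 fold change 2.48, adjusted p = 2.5e-04) and from 0.521 ± 0.779 to 7.63 ± 5.41 TPM (log2 fold change 2.40, adjusted p = 3.7e-04). Ier5 rose from 20.8 ± 9.46 to 61.7 ± 19.4 TPM (log2 fold change 1.61, adjusted p = 0.00166). Dusp1, a phosphatase of MAP kinases, fell from 3258 ± 1044 to 1311 ± 425 TPM (log2 fold change -1.32, adjusted p = 0.00147). Fos itself did not pass (12074 ± 5667 TPM in control and 9458 ± 4150.1 TPM in C118F mice, log2 fold change -0.29, adjusted p = 0.63), so the list held members in both directions.

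No gene of the cytosolic heat shock, endoplasmic reticulum stress and oxidative stress lists passed the stricter call. Of 24 cytosolic heat shock genes 4 rose (background 13.7%) and 1 fell (background 16.6%, median 0.04, 25 genes listed), with Hspb1 going from 566 ± 187 to 1149 ± 159 TPM (log2 fold change 1.07, adjusted p = 4.8e-04). Bag3 rose from 29.3 ± 10.2 to 51.8 ± 16.4 TPM (log2 fold change 0.81, adjusted p = 0.0119). Hspa4l rose from 20.2 ± 3.295 to 32.2 ± 7.97 TPM (log2 fold change 0.63, adjusted p = 0.0106). Bag1 fell from 858 ± 125 to 573 ± 148 TPM (log2 fold change -0.60, adjusted p = 0.00943). Cryab did not pass (log2 fold change 0.26, adjusted p = 0.164). In the endoplasmic reticulum stress list 7 of 26 rose (background 13.7%) and none fell (median 0.43, 28 genes listed), led by Asns, asparagine synthetase (8.04 ± 3.73 to 28.02 ± 10.5 TPM, log2 fold change 1.71, adjusted p = 1.8e-04), Herpud1 (189.9 ± 71.5 to 493 ± 127 TPM, log2 fold change 1.42, adjusted p = 8.3e-04) and Dnajb9 (246 ± 82.5 to 451 ± 118.2 TPM, log2 fold change 0.90, adjusted p = 0.00689). Hsp90b1 did not pass (log2 fold change -0.07, adjusted p = 0.763).

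Oxidative stress genes and metallothioneins gave 9 rises (background 13.7%) and 3 falls (background 16.6%) among 28 (median 0.19, 32 genes listed). Ftl1, the ferritin light chain, rose from 3174 ± 364 to 6608 ± 1515 TPM (log2 fold change 1.04, adjusted p = 2.1e-04), while the heavy chain Fth1 did not pass (1652 ± 319 TPM in control and 1786 ± 512 TPM in C118F mice, log2 fold change 0.09, adjusted p = 0.753). Srxn1 and Gstm2 rose from 56.3 ± 11.5 to 101 ± 16.01 TPM (log2 fold change 0.84, adjusted p = 6.1e-04) and from 28.2 ± 4.43 to 50.7 ± 8.97 TPM (log2 fold change 0.82, adjusted p = 7.4e-04). Gsta4, Sod2 and Cat, which encode a glutathione transferase, the mitochondrial superoxide dismutase and catalase, fell with log2 fold changes of -0.70, -0.44 and -0.34 (adjusted p = 0.00472, 0.00212 and 0.0143).

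Lysosomal genes rose in 18 of 37 cases (background 13.7%) and fell in 3 (background 16.6%, median 0.37, 38 genes listed). Cd63, a tetraspanin of late endosomes and lysosomes, stood at 163 to 309.9 TPM (median 214) in control mice and 939.9 to 2293 TPM (median 1237) in C118F mice, without overlap (log2 fold change 2.53, standard error 0.20, adjusted p = 5.0e-07). Hexa and Grn (progranulin) rose from 122 ± 14.7 to 313 ± 40.1 TPM (log2 fold change 1.35, adjusted p = 5.6e-07) and from 145 ± 21.7 to 274 ± 36.2 TPM (log2 fold change 0.92, adjusted p = 4.2e-05). The members that fell were autophagy genes, Optn, Atg5 and Becn1, with log2 fold changes of -0.71, -0.33 and -0.31 (adjusted p = 0.00539, 0.0386 and 0.0468). Gabarap did not pass (log2 fold change 0.17, adjusted p = 0.388).

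Oxidative phosphorylation gave falls and no rises: 10 of 41 fell (median -0.27, 42 genes listed), against 16.6% of all genes. Ndufb10, Ndufs7 and Ndufv1, subunits of complex I, fell from 522 ± 59.8 to 332 ± 49.4 TPM (log2 fold change -0.66, adjusted p = 8.2e-04), from 237 ± 9.74 to 152 ± 32.3 TPM (log2 fold change -0.66, adjusted p = 0.00112) and from 342 ± 34.02 to 241 ± 45.2 TPM (log2 fold change -0.52, adjusted p = 0.00676). Cox6a1 did not pass (log2 fold change 0.06, adjusted p = 0.791). Between 5 and 14 subunits fell when single mice were left out, so the share of falls did not stay above background in every case. The mean level of the list on the log2(TPM + 1) scale was 8.14 to 8.53 in control mice. C118F replicates 1, 3 and 4, at 8.17, 8.21 and 8.32, lay within that range. C118F replicate 2 was at 8.06, and C118F replicates 5 and 6 were lowest, at 7.80 and 7.81.

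Cell cycle inhibitors moved in opposite directions. Against the fall of Cdkn1c, Cdkn1a, which encodes p21 and is a target of p53, stood at 3.46 to 24.6 TPM (median 7.57) in control mice and 21.6 to 163 TPM (median 106) in C118F mice (log2 fold change 3.25, standard error 0.49, adjusted p = 1.9e-04). The lowest C118F mouse overlapped only with control replicate 2, the other 5 control mice being at most 8.34 TPM. Ccnd1, which encodes cyclin D1, and Trp53 rose from 5.05 ± 4.64 to 16.3 ± 6.45 TPM (log2 fold change 1.66, adjusted p = 0.00324) and from 41.4 ± 7.13 to 62.7 ± 10.8 TPM (log2 fold change 0.59, adjusted p = 0.00862). These made 3 rises (background 13.7%) and 1 fall (background 16.6%) among 12 CDK inhibitors and D-type cyclins (median 0.07, 16 genes listed). Ccng1 did not pass (log2 fold change -0.06, adjusted p = 0.722). Of 15 proliferation genes 4 rose (background 13.7%) and none fell (median 0.28, 30 genes listed), and these were minichromosome maintenance genes, Mcm6 with 7.11 to 13.2 TPM (median 10.5) in control mice and 29.7 to 69.9 TPM (median 42.3) in C118F mice (log2 fold change 2.01, standard error 0.22, adjusted p = 1.0e-05), Mcm2 (3.73 ± 0.588 to 8.84 ± 4.86 TPM, log2 fold change 0.92, adjusted p = 0.024), Mcm3 (3.89 ± 0.988 to 9.26 ± 2.99 TPM, log2 fold change 1.04, adjusted p = 0.00307) and Mcm5, chosen after its values were seen (6.65 ± 1.203 to 11.5 ± 4.76 TPM, log2 fold change 0.64, adjusted p = 0.0486). Stmn1 did not pass (log2 fold change -0.59, adjusted p = 0.0507).

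Apoptosis regulators gave 4 rises (background 13.7%) and 1 fall (background 16.6%) among 21 (median 0.06, 29 genes listed). Bid, a proapoptotic BH3 protein, stood at 0.2403 to 5.52 TPM (median 0.989) in control mice and 6.33 to 20.1 TPM (median 15.6) in C118F mice (log2 fold change 2.69, standard error 0.36, adjusted p = 6.0e-05), and control replicate 2, at 5.52 TPM, was the one control mouse above 1.23 TPM. Bok, another proapoptotic member of the BCL2 family, and Tnfrsf10b, a death receptor, rose from 24.7 ± 2.91 to 63.3 ± 9.97 TPM (log2 fold change 1.32, adjusted p = 1.8e-06) and from 0.8199 ± 0.483 to 3.03 ± 0.891 TPM (log2 fold change 1.16, adjusted p = 0.00165). Bcl2l2, which opposes cell death, fell from 15.97 ± 2.65 to 11.3 ± 2.58 TPM (log2 fold change -0.47, adjusted p = 0.0428). Mcl1 did not pass (484 ± 122 TPM in control and 700.4 ± 234 TPM in C118F mice, log2 fold change 0.50, adjusted p = 0.123).

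Annexins and S100 proteins, calcium-dependent membrane and signalling proteins, gave 10 rises (background 13.7%) and 2 falls (background 16.6%) among 17 (median 0.44, 25 genes listed). S100a10 and Anxa6 rose from 614 ± 71.4 to 1147 ± 191 TPM (log2 fold change 0.89, adjusted p = 1.5e-04) and from 168 ± 13.8 to 281 ± 50.5 TPM (log2 fold change 0.72, adjusted p = 3.5e-04). Anxa2, the partner of S100a10, fell from 937 ± 115 to 714 ± 138 TPM (log2 fold change -0.41, adjusted p = 0.0374). Anxa4 fell from 431 ± 35.7 to 321 ± 23.8 TPM (log2 fold change -0.42, adjusted p = 0.00264). S100a13 did not pass (log2 fold change -0.21, adjusted p = 0.31).

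The list of keratins and other intermediate filaments also holds Crct1 and Pkp2, which are not intermediate filament genes. Of its 9 tested members, with Crct1 and Pkp2 counted, 5 rose (background 13.7%) and 1 fell (background 16.6%, median 1.03, 30 genes listed). Krt7, a simple epithelial keratin, was the fall, from 44.7 ± 8.49 to 10.1 ± 3.93 TPM (log2 fold change -2.09, adjusted p = 4.0e-06). Lmna (lamin A/C) and Sync (syncoilin) rose from 203 ± 22.96 to 536 ± 175 TPM (log2 fold change 1.35, adjusted p = 5.3e-05) and from 47.8 ± 8.82 to 109 ± 30.9 TPM (log2 fold change 1.15, adjusted p = 2.7e-04), beside Crct1 above. Pkp2 did not pass (log2 fold change 0.16, adjusted p = 0.416).

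Galectins and tetraspanins gave 10 rises (background 13.7%) and 4 falls (background 16.6%) among 20 (median 0.34, 26 genes listed). Beside Lgals3, Lgals1 (galectin-1) stood at 77.2 to 276 TPM (median 104) in control mice and 1037 to 2166 TPM (median 1531) in C118F mice (log2 fold change 3.69, standard error 0.26, adjusted p = 1.6e-07), while Lgals2 fell from 7.996 ± 4.36 to 2.53 ± 3.39 TPM (log2 fold change -1.66, adjusted p = 0.0233). The galectins thus moved in both directions. Of the tetraspanins, Tspan6 and Cd82 rose from 114 ± 22.5 to 311 ± 87.4 TPM (log2 fold change 1.40, adjusted p = 6.3e-05) and from 779 ± 42.3 to 1691 ± 93.8 TPM (log2 fold change 1.12, adjusted p = 5.6e-07). Cd81 fell from 3807 ± 302 to 2575 ± 372.0 TPM (log2 fold change -0.57, adjusted p = 0.00441). Tspan15 fell from 379 ± 56.1 to 267 ± 32.3 TPM (log2 fold change -0.50, adjusted p = 0.00481). Tspan13 did not pass (log2 fold change 0.30, adjusted p = 0.113).

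Of 11 tested genes of parietal epithelial cells and epithelial injury 7 rose (background 13.7%) and none fell (median 1.43, 23 genes listed). Tmem176a, a membrane protein gene, stood at 18.9 to 49.1 TPM (median 21.3) in control mice and 89.8 to 279.6 TPM (median 147) in C118F mice (log2 fold change 2.41, adjusted p = 1.6e-05). Its neighbour Tmem176b stood at 79.8 to 176 TPM (median 119) in control mice and 379.7 to 1044 TPM (median 583) in C118F mice (log2 fold change 2.30, adjusted p = 3.1e-06). Cd44, the hyaluronan receptor of activated parietal cells and chosen after its values were seen, stood at 0 to 4.23 TPM (median 0.477) in control mice and 2.42 to 25.6 TPM (median 14.5) in C118F mice (log2 fold change 2.80, standard error 0.50, adjusted p = 8.0e-04). The list shares Cldn1, Clu, Aldh1a2 and Spp1 with others above. Among tubule markers, Kap and Gatm fell from 77.4 ± 83.05 to 9.54 ± 16.02 TPM (log2 fold change -2.87, adjusted p = 0.043) and from 142 ± 71.2 to 37.995 ± 14.6 TPM (log2 fold change -1.83, adjusted p = 4.3e-04). Miox did not pass (log2 fold change -2.52, adjusted p = 0.0904). Of the other markers that passed the filter, Ehd3 (log2 fold change 0.09, adjusted p = 0.706) and Agtr1a (log2 fold change -0.11, adjusted p = 0.879) did not pass the test.

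**Figure D3:**
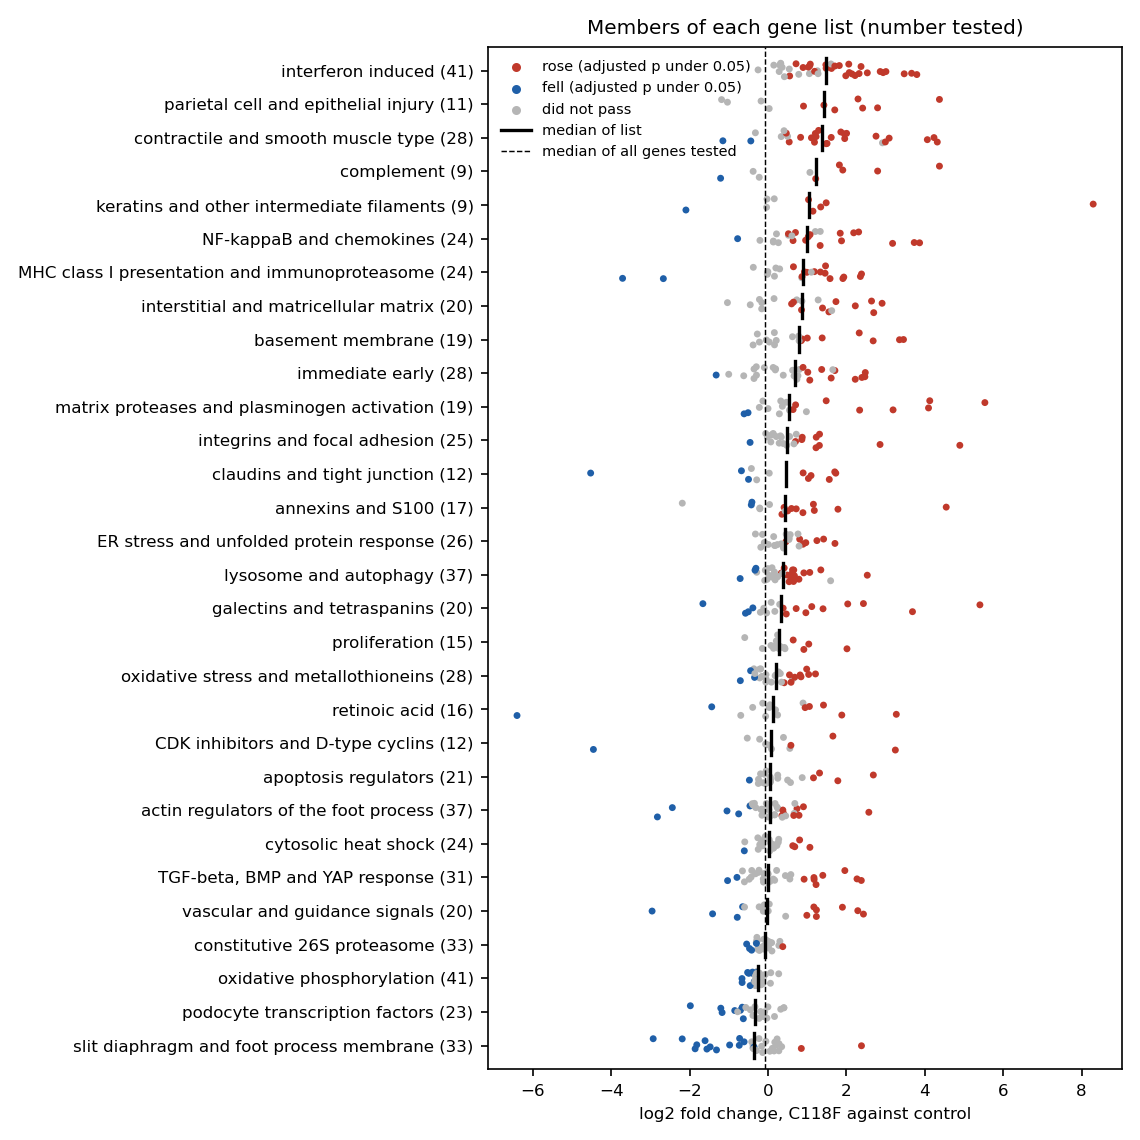
Log2 fold change of C118F over control (horizontal axis) of each tested member of 30 gene lists (rows, number tested in brackets, sorted by median), with members that rose in red, fell in blue and did not pass in grey. Thick bars are list medians and the dashed line is the median of all genes, -0.06; the interferon and contractile lists lie to its right, with medians of 1.48 and 1.39, and the slit diaphragm list to its left, at -0.35.

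C118F podocytes varied more from mouse to mouse than control podocytes. The median SD of a gene on the log2(TPM + 1) scale was 0.332 between C118F mice and 0.246 between control mice, and 68.9% of genes had the larger SD in C118F mice (60.9% to 71.6% with single mice left out). An SD above 1 was found for 230 genes in C118F and 176 in control mice. The C118F mice were numbered 46301 to 50093 and the control mice 46302 to 47155, and the part of this wider range in the spread was not tested. The 5 genes with the largest SD between C118F mice were Tgtp2, Cd274, S100g, Acta2 and Gbp3, of which Tgtp2, Gbp3 and Cd274 belong to the interferon response. Tgtp2, an interferon-induced GTPase with a near-identical copy, held 637, 9.01, 1.74, 14.2, 200.97 and 23.1 TPM in C118F replicates 1 to 6 and at most 2.59 TPM in control mice (log2 fold change 3.80, adjusted p = 0.0114). Gbp3 held 445, 17.5, 6.55, 20.6, 202 and 66.2 TPM in the same mice (log2 fold change 3.47, adjusted p = 0.00416). Cd274, which encodes PD-L1, held 153, 4.85, 5.004, 6.81, 215 and 30.7 TPM and did not pass (log2 fold change 1.87, adjusted p = 0.0958). In all of these, C118F replicates 1 and 5 were the highest pair.

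The other pair was of a different kind. Acta2 held 422, 72.6, 5.22, 52.8, 30.4 and 6.78 TPM in C118F replicates 1 to 6. S100g, a calcium-binding protein of the distal tubule, held 8.36, 0, 28.7, 47.6, 0.397 and 1.65 TPM in C118F mice and 14.4, 705, 30.1, 6.599, 9.82 and 14.9 TPM in control replicates 1 to 6 (log2 fold change -2.18, adjusted p = 0.16). Its highest control value came from the mouse with the highest tubule marker sum.

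**Figure D4:**
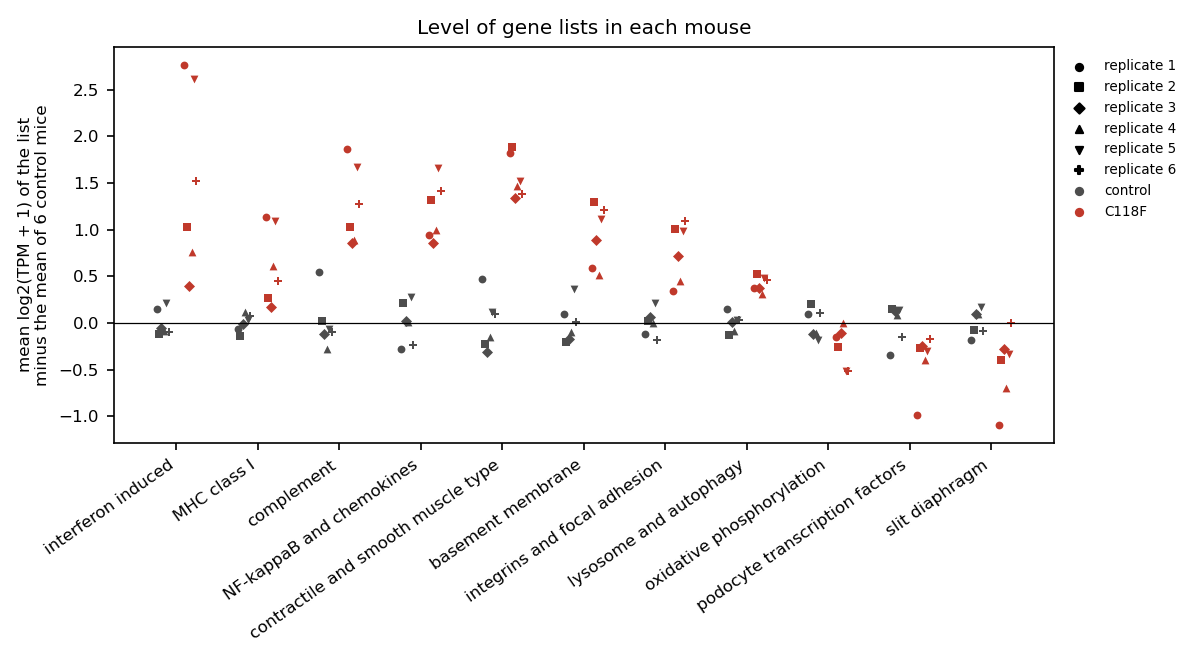
Mean log2(TPM + 1) of the tested members of 11 lists, minus the mean of the 6 control mice (vertical axis), 1 symbol per mouse and replicate number, control mice in grey and C118F mice in red. In the interferon list the C118F mice lie above all control mice and spread widely, with replicates 1 and 5 highest, and in the slit diaphragm and transcription factor lists C118F replicate 1 is lowest.

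**Figure D5:**
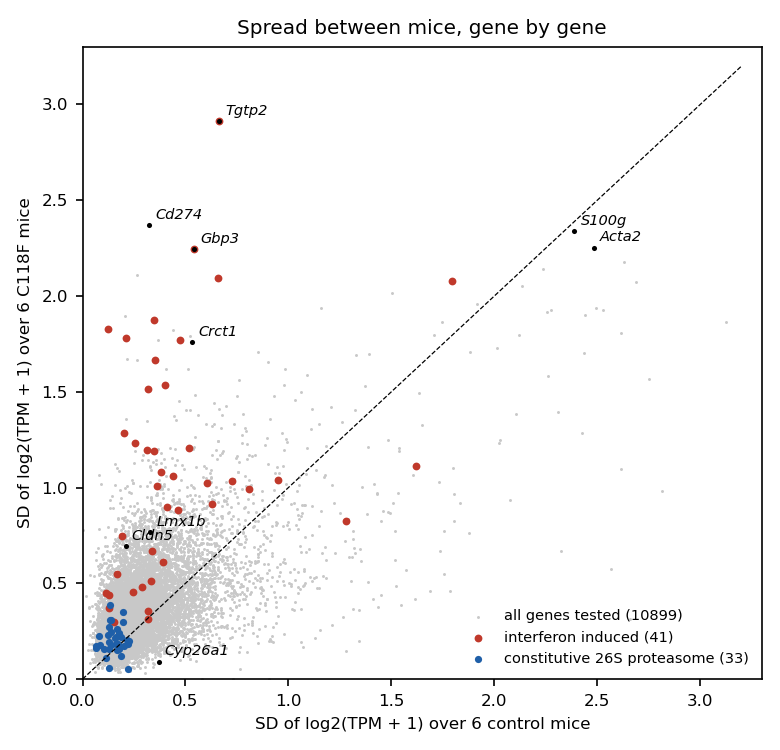
SD of log2(TPM + 1) between the 6 C118F mice (vertical axis) against that between the 6 control mice (horizontal axis), 1 point per tested gene (10899), with the dashed line of equal SD, the 41 interferon genes in red and the 33 constitutive proteasome genes in blue. Of all genes 68.9% have the larger SD in C118F mice, and Tgtp2, Cd274, S100g, Acta2 and Gbp3 have the 5 largest.

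A second mutant, Lmx1b H77L/lox, changes a zinc-holding histidine of the first LIM domain and was treated in the same way (6 mice). No gene of 10809 tested differed between C118F and H77L podocytes at an adjusted p below 0.05 in limma, and 416 (3.85%) had an unadjusted p below 0.05. A test that finds no gene does not show that the mutants act alike. Both are set against the same control mice, so their values are given side by side. Of the 41 tested interferon list members, 38 had a higher mean in C118F than in H77L mice, with a median difference of 0.76 log2 units, against 41.2% of the 10613 genes tested in both comparisons. These members had passed the filter on C118F and control mice, in which H77L mice had no part. They are also not independent of each other, so the count describes the mice and does not test the mutants. The mean level of the list was 4.12 to 5.51 in H77L mice, which C118F replicates 1 and 5 exceeded and within which the other 4 C118F mice lay (4.296 to 5.42). Cyp26a1 was 0 to 0.156 TPM in C118F and 0 to 0.718 TPM in H77L mice, and Crct1 48.1 to 1092 and 39.8 to 865 TPM. Among the 247 genes of the stricter call, the difference between the mutants reached at most 1.21 log2 units in the up and 0.762 in the down genes.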

How the data were processed

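Single-end reads of poly(A) RNA (SMART-Seq mRNA LP libraries, which do not keep strand) were trimmed with Trim Galore 0.6.7, aligned with STAR to GRCm39 with 1 random place kept per multimapping read, and counted per gene with featureCounts 1.6.3, and the authors deposited the values as TPM, which are relative to gene length and to the total of each library. Near-identical genes and genes on opposite strands can therefore exchange reads, and a large rise of abundant genes lowers all others. Reads per library were recovered from the TPM steps for 85.4% of genes above 0 (values within 0.02 of a whole read), and only their totals and 1 alternative test use them.

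Genes exceeding 1 TPM in all 6 mice of either group were tested on log2(TPM + 1) with limma 3.58.1 with an intensity trend (R 4.3.3) and Benjamini-Hochberg adjustment, on the 12 mice only; fold changes on this scale understate those of low genes. Summaries and figures were made with Python 3.11.15, pandas 2.3.3, numpy 2.4.6 and matplotlib 3.10.9. On simulated data, all but 1 of 200 genes shifted by 2.5 log2 units passed the looser call and 189 the stricter one, and of 200 shifted by 1, 156 passed the looser. Genes were named if they were Lmx1b or a gene named by the study, among the 10 largest separated rises or falls, among the 3 lowest p of each list in each direction or its most abundant member that did not pass, or among the 5 largest SDs between C118F mice. Some genes that met this rule are not reported here. Mice were taken by their labels, whereas the comparison, the genes described and the lists were chosen with earlier results of these data known. Each mouse is 1 sample, replicate numbers were given in accession order, and sex is not given in the labels. Alternatives changed the pseudocount, filter, scaling, trend, array weights, covariates, cutoffs and mice. Promoters came from RefSeq (GRCm38.p6) and the Lmx1b codon from Ensembl annotation of GRCm39.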

Additional observations from a re-analysis of the deposited data

Results flagged for a closer look

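In each group of 6 mice, the distance of the highest or lowest mouse from its nearest neighbour was set against the whole range on the log2(TPM + 1) scale, for 204 named genes and 35 lists. It passed Dixon's 95% critical value for 6 samples in 30 of 478 groups of values, where chance alone gives about 1 in 20. Of these, 8 were values of C118F replicate 1 and 10 of control replicate 1, the libraries with the high renin and the high Lyz2 transcript. In C118F replicate 1, the values that stood apart were Angptl2 at 419 TPM (lowest, others 999 to 1486), Bok at 83.05 TPM (highest, others 56.1 to 62.9), Cd63 at 2293 TPM (highest, others 939.9 to 1307), Ftl1 at 9554 TPM (highest, others 5303 to 6496), Klf6 at 320.3 TPM (lowest, others 695 to 1092), Nphs1 at 113 TPM (lowest, others 154 to 169) and Trp53 at 41.96 TPM (lowest, others 60.5 to 71.8). C118F replicate 4 stood apart in Cd82 at 1876 TPM (highest, others 1628 to 1690.2). In control replicate 1, the values that stood apart were Cd44 at 4.23 TPM (highest, others 0 to 0.629), Csf1r at 7.19 TPM (highest, others 3.07 to 4.25), Lgals1 at 276 TPM (highest, others 77.2 to 121), Rdh10 at 31.2 TPM (highest, others 12.6 to 15.8), Scara3 at 8.87 TPM (highest, others 0 to 1.09), Serping1 at 267 TPM (highest, others 97.1 to 136), Tgfb2 at 7.07 TPM (highest, others 0.804 to 1.29), Tgfb3 at 34.9 TPM (highest, others 4.68 to 9.73) and Tnc at 4.77 TPM (highest, others 0.02397 to 0.584). In control replicate 2, the values that stood apart were Bid at 5.52 TPM (highest, others 0.2403 to 1.23), Bmpr1a at 337 TPM (lowest, others 423 to 471), Ccnd1 at 14.4 TPM (highest, others 2.41 to 4.41), Dpp4 at 1251 TPM (lowest, others 1605 to 1844), S100g at 705 TPM (highest, others 6.599 to 30.1) and Sync at 31.5 TPM (lowest, others 44.7 to 54.7). Control replicate 3 stood apart in Hoxc8 at 205 TPM (lowest, others 254 to 286). Among mean list levels on the log2(TPM + 1) scale, those that stood apart were podocyte transcription factors in C118F replicate 1 at 5.34 (lowest, others 5.93 to 6.16), complement in control replicate 1 at 6.31 (highest, others 5.48 to 5.79), CDK inhibitors and D-type cyclins in C118F replicate 3 at 5.25 (lowest, others 5.54 to 5.71), CDK inhibitors and D-type cyclins in control replicate 2 at 5.68 (highest, others 5.36 to 5.46), cytosolic heat shock in C118F replicate 5 at 7.82 (highest, others 7.35 to 7.43) and tubule markers in C118F replicate 4 at 5.54 (highest, others 1.56 to 2.84).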

How the results depend on the processing

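The 178 rises and 69 falls of the stricter call went to 157 to 202 and 64 to 75 when single mice were left out, and the 1498 and 1810 genes of the looser call to 1240 to 1688 and 1397 to 1833. Keeping only mice numbered up to the highest control number, 47155, left 3 C118F mice. This gave 110 stricter rises, and 897 higher and 1168 lower genes, with fewer mice in the fit. The mouse number as a covariate gave 131 stricter rises and 54 falls, and Xist minus Ddx3y as a covariate gave 1156 lower genes. Ddx3y was at most 0.0336 TPM in any mouse, so this covariate is in effect Xist and holds no contrast of sex. Xist was 12.8 to 22.7 TPM in C118F and 16.8 to 38.1 TPM in control mice. The cause of the smaller count of lower genes was not tested. Looser cutoffs (adjusted p 0.05, 1 log2 unit) gave 729 rises and 380 falls. The Lmx1b difference ran from 0.20 to 0.66 with single mice left out, and only the 0.66 without C118F replicate 1 passed. The comparison with H77L gave 0 genes under every alternative run. No paired analysis was possible because each mouse carries its own number and the labels pair none.

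Of 204 named genes other than Lmx1b, 162 passed the looser call, and all 162 kept their sign under every alternative. Of these, 31 lost the looser call in at least 1 alternative, 10 of them with a single mouse left out (Anxa2, Atg5, Bcl2l2, Becn1, Kap, Lgals2, Lyz2, Mcm2, Mcm5 and Wt1, adjusted p of at most 0.109 there). Of 1276 list counts under alternatives, 1126 stayed within 1.5 times the reported count. TPM depends on the whole library, so values are relative, and a gene below 1 TPM in a group rests on few reads.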
